A study of Mus musculus with 12 samples.

Results

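The basement membrane is the thin sheet of matrix under the epidermis and around blood vessels, muscle fibres, fat cells and nerves. The 10 genes described here were taken by gene symbol: the collagen genes Col4a1, Col4a2, Col7a1, Col15a1 and Col18a1, the nidogen genes Nid1 and Nid2, the laminin chain genes Lamb2 and Lamc1, and Hspg2, which encodes perlecan. They were measured by 15 of the 22626 probe sets tested, a probe set being a group of array features summarised as 1 signal. In all, 12393 genes were represented. Col4a1, Col18a1, Nid1, Lamc1 and Hspg2 had 2 probe sets each.

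RNA was hybridised to 12 arrays, of which 5 held primary keratinocyte cultures, made from newborn mice, 5 held skin taken at 30 days of age and 2 held newborn skin. Each culture pooled cells of 5 mice of one genotype and was grown without passage, for up to 3 days, in medium low in calcium. Cultures 1 and 2 and all 30-day skin were of mixed C57, DBA and FVB strain, and cultures 3, 4 and 5 and both newborn skin samples were FVB. Strain and age therefore cannot be told apart within skin, and since the labels leave unsaid whether each skin sample is a separate animal, a p-value reflects only how far these samples spread, part of which may be technical. Signal is given on the log2 scale of RMA, a method that corrects, normalises and summarises array features, and a difference of 1 on this scale is a factor of 2.

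Type IV collagen networks and laminin networks form the sheet of every basement membrane, and nidogens and perlecan link them. The α1 and α2 chains of collagen IV assemble in the ubiquitous network, and collagens XV and XVIII carry glycosaminoglycan chains and lie at the edge of the sheet facing the connective tissue. Collagen VII is the anchoring fibril collagen that fastens the epidermis to the dermis. In skin, these genes are transcribed by several cell types, including fibroblasts, endothelial cells, pericytes, fat cells and keratinocytes, and in whole tissue fewer cells of a type and less RNA per cell cannot be told apart.

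Stretches of promoter sequence are shown because they belong to the genes that carried the findings. Col4a1 and Col4a2 lie head to head on mouse chromosome 8, and in the RefSeq annotation of build GRCm38.p6 their start sites are on opposite strands at 11312826 and 11312805. The annotated transcripts overlap, and the 22 bases running from one start to the other, chr8:11312805-11312826, are given on the plus strand, where capitals mark the only GC box, GGGCGG:
Col4a2 and Col4a1: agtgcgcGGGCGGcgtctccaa
For Nid1, which had the largest difference of the 10 genes between culture and newborn skin, and Col7a1, which differed in the opposite direction, the 250 bases before the start are given, chr13:13437352-13437601 and chr9:108953336-108953585, both on the plus strand. Capitals mark GC boxes and CCAAT boxes (CCAAT or its reverse complement ATTGG):
Nid1: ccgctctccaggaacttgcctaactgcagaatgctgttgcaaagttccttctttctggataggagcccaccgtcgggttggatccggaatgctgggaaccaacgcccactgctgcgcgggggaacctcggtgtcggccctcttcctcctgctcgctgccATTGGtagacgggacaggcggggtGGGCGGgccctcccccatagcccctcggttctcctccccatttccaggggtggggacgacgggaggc
Col7a1: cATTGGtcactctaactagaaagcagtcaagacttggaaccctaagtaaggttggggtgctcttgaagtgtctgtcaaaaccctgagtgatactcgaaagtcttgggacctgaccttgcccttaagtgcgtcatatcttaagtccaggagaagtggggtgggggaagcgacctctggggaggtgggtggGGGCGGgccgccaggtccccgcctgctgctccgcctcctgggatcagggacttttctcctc
Each of these windows held 1 GC box and 1 CCAAT box, both strands counted. The RefSeq table had 9 such windows for 8 of the 10 genes, of which 5 held a GC box (GGGCGG or CCGCCC) and 5 a CCAAT box, against 32.7% and 33.8% of all 32851 windows in the table. None of the 9 held TATAAA or TTTATA, which 12.4% of all windows did.

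The label of the cultures was checked against cell type markers. The mean signal of 11 keratinocyte markers was 9.22 to 9.76 in cultures, 9.82 to 10.01 in 30-day skin and 10.20 to 10.28 in newborn skin, above every array median. Against newborn skin 5 of the 11 were higher in culture and 4 lower, where 2141 and 2245 of all 12393 genes were. Among the lower were Krt10 (-4.77) and Lor (-4.21), which encode proteins of differentiating keratinocytes. Markers of fibroblasts and vessels were lower in the cultures: the mean of 13 fibroblast markers was 6.19 to 6.91 in cultures, 9.96 to 10.63 in 30-day skin and 10.94 to 10.95 in newborn skin, and that of 16 endothelial markers was 5.11 to 5.35, 6.36 to 6.43 and 6.89 to 6.90 in the same groups. Among 12 smooth muscle and pericyte markers the means were 5.97 to 6.31, 7.08 to 7.41 and 7.37 to 7.46. RMA values have no true zero, and array medians lay between 5.86 and 6.01. The gap between 3' and 5' actin probe sets, a sign of RNA quality, was 1.74 in replicate 1 of 30-day skin, while its group's remaining 4 arrays had 0.67 to 0.82, and its 18S rRNA signal was 8.16, where the other 11 arrays read 5.15 to 6.35. The actin gap was 0.21 to 0.74 in cultures and 0.99 and 1.14 in newborn skin, so it differed along with that comparison, and its part in the results was not tested. The tests on 30-day skin were also run without that array. The counts of the 15 probe sets called against culture, given below, were the same without it, with Lamb2 lost and Hspg2 1418669_at gained. Counts of probe sets whose arrays did not overlap were made on all arrays only.

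**Figure D1:**
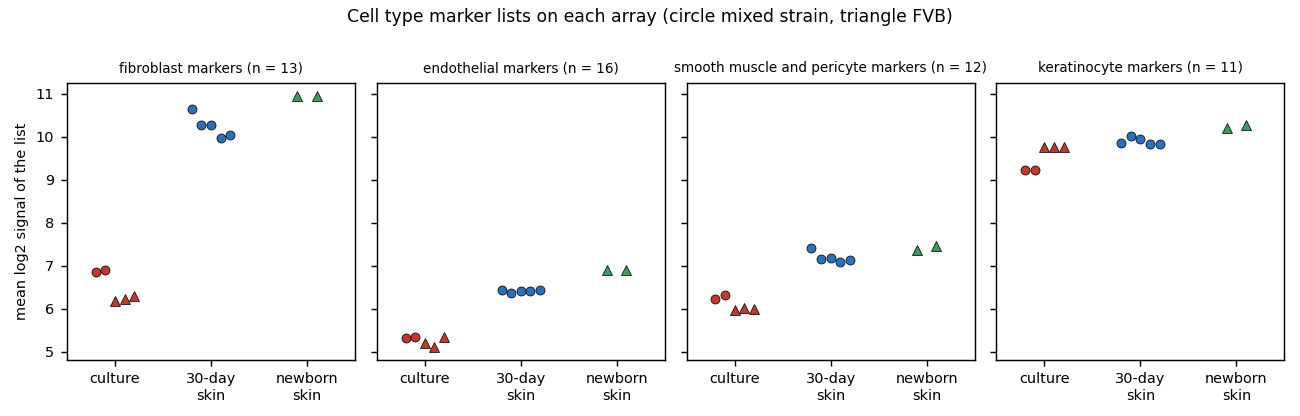
Mean log2 signal of 4 cell type marker lists on each array (y axis) in cultures, 30-day skin and newborn skin (x axis), with circles for mixed-strain and triangles for FVB samples. Fibroblast markers lie at 6.19 to 6.91 in cultures and at 9.96 or more in skin, and within cultures the 2 mixed-strain arrays lie above the 3 FVB arrays.

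The series set keratinocyte cultures against skin. Against newborn skin, 10 of the 15 probe sets were lower in culture and 3 higher at an adjusted p under 0.05 (limma, Benjamini-Hochberg over all probe sets), where 14.7% of all probe sets were lower and 17.6% higher. The arrays of culture and newborn skin did not overlap for the same 10 and 3 probe sets, against 20.0% and 25.5% of all probe sets. The median log2 difference of the 15 was -2.04, and that of all probe sets was 0.04. Against 30-day skin the counts were again 10 lower and 3 higher, where 18.2% of all probe sets were lower and 25.1% higher, with a median of -1.23 against 0.03. There the arrays did not overlap for 9 lower and 3 higher probe sets, against 13.9% and 18.6% of all probe sets. Both comparisons share the 5 cultures. The genes that were lower encode collagen IV, collagen XV, nidogens, the Lamb2 chain and, on 1 probe set each, the Lamc1 chain and perlecan. The genes that were higher were Col7a1 and Col18a1. The Lamb2 calls were lost when some single arrays were left out.

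**Figure D2:**
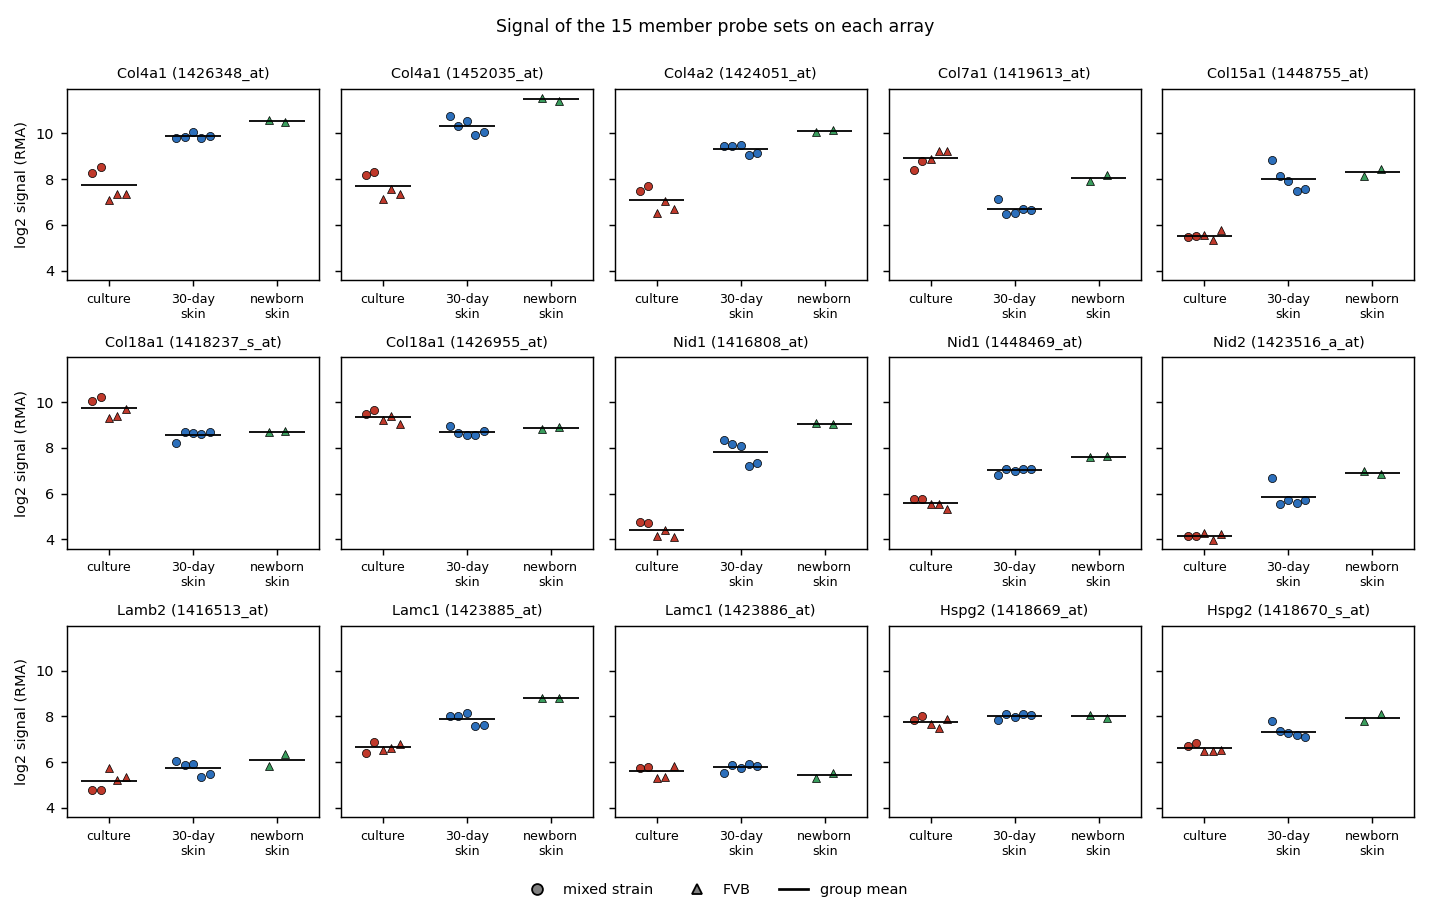
Log2 signal of each of the 15 probe sets (panels) on each of the 12 arrays, in cultures, 30-day skin and newborn skin, with circles for mixed-strain samples, triangles for FVB samples and a line at the group mean. Collagen IV, Col15a1 and the nidogen genes are low in culture, Col7a1 and Col18a1 are high in culture, and Col4a1 is higher in the 2 mixed-strain cultures (8.20 to 8.52) than in the 3 FVB cultures (7.10 to 7.55).

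Collagen IV forms the covalently linked mesh of the sheet, and its α1 chain is encoded by Col4a1. Probe set 1452035_at of Col4a1 read 8.20, 8.32, 7.12, 7.55 and 7.36 in cultures 1 to 5. It read 10.75, 10.34, 10.54, 9.92 and 10.07 in 30-day skin 1 to 5 and 11.57 and 11.40 in newborn skin. Every culture lay below every skin array, and the mixed-strain cultures 1 and 2 were the highest of the cultures. The difference of culture from newborn skin was -3.77 ± 0.30 (SE, adjusted p = 3.61e-07, limma), a 13.7-fold lower signal, and that from 30-day skin was -2.61 ± 0.23 (SE, adjusted p = 5.20e-07, limma). The other Col4a1 probe set, 1426348_at, had mean signals of 7.72 ± 0.64 in the 5 cultures (SD), 9.88 ± 0.11 (SD, n = 5) in 30-day skin and 10.55 ± 0.08 (SD, n = 2) in newborn skin, with smaller differences of -2.83 from newborn and -2.15 from 30-day skin.

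Col4a2, which encodes the partner chain from the shared start region printed above, read 7.46, 7.70, 6.52, 7.05 and 6.70 in cultures 1 to 5. It read 9.47, 9.44, 9.49, 9.05 and 9.13 in 30-day skin and 10.08 and 10.15 in newborn skin. The order of the groups was that of Col4a1, with no overlap between any of them. Culture differed from newborn skin by -3.03 ± 0.26 (SE, adjusted p = 8.09e-07, limma), or 8.15-fold, and from 30-day skin by -2.23 ± 0.20 (SE, adjusted p = 6.16e-07, limma), or 4.69-fold.

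Col15a1 encodes a collagen found next to the membranes of vessels, muscle and nerves. It read 5.47, 5.50, 5.55, 5.35 and 5.78 in cultures 1 to 5, below every array median. It read 8.82, 8.15, 7.91, 7.49 and 7.58 in 30-day skin and 8.13 and 8.46 in newborn skin. The 2 ages of skin overlapped, and the cultures stood apart from both by -2.77 ± 0.27 for newborn and -2.46 ± 0.21 for 30-day skin (SE, adjusted p = 3.27e-06 and 3.91e-07, limma).

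The nidogens bridge the laminin and collagen IV networks. For Nid1, probe set 1416808_at read 4.76, 4.69, 4.14, 4.40 and 4.11 in cultures 1 to 5. It read 8.33, 8.16, 8.07, 7.20 and 7.32 in 30-day skin and 9.09 and 9.03 in newborn skin. The 3 groups did not overlap, and within 30-day skin replicates 4 and 5 were lower than the other 3 arrays. These replicates were also the lowest of 30-day skin in the mean of the 10 genes, at 7.56 and 7.63 against 7.88 to 8.13. Nid1 probe set 1448469_at did not show that split. Culture differed from newborn skin by -4.64 ± 0.28 (SE, adjusted p = 3.18e-08, limma), or 24.9-fold, and from 30-day skin by -3.40 ± 0.22 (SE, adjusted p = 2.32e-08, limma), or 10.5-fold. The other Nid1 probe set, 1448469_at, gave smaller differences in the same direction, -2.04 ± 0.13 and -1.44 ± 0.10 (SE, adjusted p = 3.40e-08 and 3.81e-08, limma).

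Nid2, the second nidogen gene, read 4.14, 4.15, 4.28, 3.97 and 4.21 in cultures 1 to 5. It read 6.66, 5.53, 5.72, 5.60 and 5.71 in 30-day skin and 6.97 and 6.86 in newborn skin. The cultures lay close together and far below the skin, while replicate 1 of 30-day skin lay between its own group and newborn skin. Culture differed from newborn skin by -2.77 ± 0.23 and from 30-day skin by -1.69 ± 0.18 (SE, adjusted p = 6.86e-07 and 3.27e-06, limma). The nidogen readings in culture lay below the array medians, and RMA values carry no background level, which leaves the size of a difference from so dim a signal uncertain.

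Lamc1 encodes the γ1 chain, which most laminins outside laminin-332 contain, and Lamb2 the β2 chain. Probe set 1423885_at of Lamc1 read 6.42, 6.89, 6.54, 6.61 and 6.78 in cultures 1 to 5. It read 8.02, 8.02, 8.14, 7.57 and 7.63 in 30-day skin and 8.81 and 8.82 in newborn skin. The 3 groups stood apart, with a difference of culture from newborn skin of -2.17 ± 0.17 and from 30-day skin of -1.23 ± 0.13 (SE, adjusted p = 2.70e-07 and 2.82e-06, limma). The other Lamc1 probe set, 1423886_at, did not follow: its mean was 5.61 ± 0.25 in the 5 cultures (SD), 5.78 ± 0.16 (SD, n = 5) in 30-day skin and 5.43 ± 0.13 (SD, n = 2) in newborn skin, near the array medians. Its difference from newborn skin was 0.18 with a 95% interval of -0.16 to 0.53.

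Lamb2 read 4.77, 4.79, 5.73, 5.22 and 5.36 in cultures 1 to 5. It read 6.05, 5.89, 5.93, 5.37 and 5.49 in 30-day skin and 5.83 and 6.36 in newborn skin. Of the cultures only culture 3, an FVB culture, overlapped with 30-day skin, and all cultures lay below newborn skin. The differences were -0.92 ± 0.26 against newborn and -0.57 ± 0.20 against 30-day skin (SE, adjusted p = 0.0136 and 0.0295, limma). Leaving out replicate 2 of newborn skin ended the first call (-0.66, adjusted p = 0.206, limma), and leaving out replicate 1 of 30-day skin ended the second (-0.50, adjusted p = 0.0662, limma), as did leaving out culture 1 or 2 or 30-day replicate 2 or 3. Median centring (-0.49, adjusted p = 0.0619, limma) and a further quantile normalisation (-0.49, adjusted p = 0.0743, limma) ended it as well.

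Hspg2 encodes perlecan, a large heparan sulfate proteoglycan. Its probe set 1418670_s_at read 6.71, 6.82, 6.50, 6.50 and 6.52 in cultures 1 to 5. It read 7.78, 7.35, 7.26, 7.20 and 7.11 in 30-day skin and 7.79 and 8.09 in newborn skin. The cultures lay below all skin, with differences of -1.33 ± 0.17 for newborn and -0.73 ± 0.12 for 30-day skin (SE, adjusted p = 2.74e-05 and 0.000278, limma). Probe set 1418669_at of the same gene overlapped between groups, at 7.77 ± 0.21 (SD, n = 5) in culture, 8.01 ± 0.11 (SD, n = 5) in 30-day skin and 8.01 ± 0.10 (SD, n = 2) in newborn skin. Its difference from newborn skin was -0.24, with a 95% interval of -0.53 to 0.05 (adjusted p = 0.204, limma), so 1 of the 2 Hspg2 probe sets was called against newborn skin. Against 30-day skin it was -0.24 too (adjusted p = 0.0738, limma), and it passed without replicate 1 of 30-day skin (-0.29, adjusted p = 0.0408, limma) or without culture 2 (-0.30, adjusted p = 0.0323, limma). It also passed after a further quantile normalisation (-0.37, adjusted p = 0.0171, limma) and on the scale of epithelial junction genes described below (-0.52, adjusted p = 0.00142, limma).

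Col7a1 and Col18a1 went the other way. Col7a1, the anchoring fibril gene, read 8.39, 8.81, 8.89, 9.23 and 9.22 in cultures 1 to 5. It read 7.13, 6.46, 6.51, 6.71 and 6.66 in 30-day skin and 7.92 and 8.16 in newborn skin. The 3 groups did not overlap, and 30-day skin was the lowest. Culture was higher than 30-day skin by 2.21 ± 0.17 (SE, adjusted p = 1.24e-07, limma), or 4.63-fold, and higher than newborn skin by 0.87 ± 0.22 (SE, adjusted p = 0.00711, limma), or 1.83-fold. The second call was lost without replicate 1 of newborn skin (0.75, adjusted p = 0.0981, limma) and with the replicate number as a block (0.77, adjusted p = 0.0600, limma).

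Col18a1 encodes the collagen whose end is released as endostatin. Probe set 1418237_s_at read 10.06, 10.24, 9.31, 9.41 and 9.69 in cultures 1 to 5. It read 8.23, 8.68, 8.63, 8.59 and 8.68 in 30-day skin and 8.70 and 8.72 in newborn skin. All cultures were above all skin, by 1.03 ± 0.22 for newborn and 1.18 ± 0.17 for 30-day skin (SE, adjusted p = 0.00227 and 5.23e-05, limma). Probe set 1426955_at moved the same way by 0.50 ± 0.15 and 0.67 ± 0.12 (SE, adjusted p = 0.0237 and 0.000321, limma), and its call against newborn skin was lost when either newborn array was left out (0.47 and 0.52, adjusted p = 0.144 and 0.108, limma). It was lost as well for FVB cultures alone (0.36, adjusted p = 0.0648, limma) and after a further quantile normalisation (0.41, adjusted p = 0.0668, limma).

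The scale on which arrays are compared bears on these rises. Centring each array on 21 epithelial junction genes, which relates signal to the epithelial part of the sample, shifted the median of all probe sets to -0.64 against newborn skin. On that scale 12 of the 15 probe sets were lower than newborn skin and 0 higher, where 73.1% of all probe sets were lower and 3.61% higher, with Col7a1 at 0.18 and the Col18a1 probe sets at 0.35 and -0.19. Against 30-day skin, where the median shifted to -0.25, 3 were higher and 12 lower, where 2746 of all 22626 probe sets were higher and 9045 lower. Of the junction genes themselves, 11 of 21 were higher in culture than in newborn skin on the deposited scale, and 1 was lower.

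**Figure D3:**
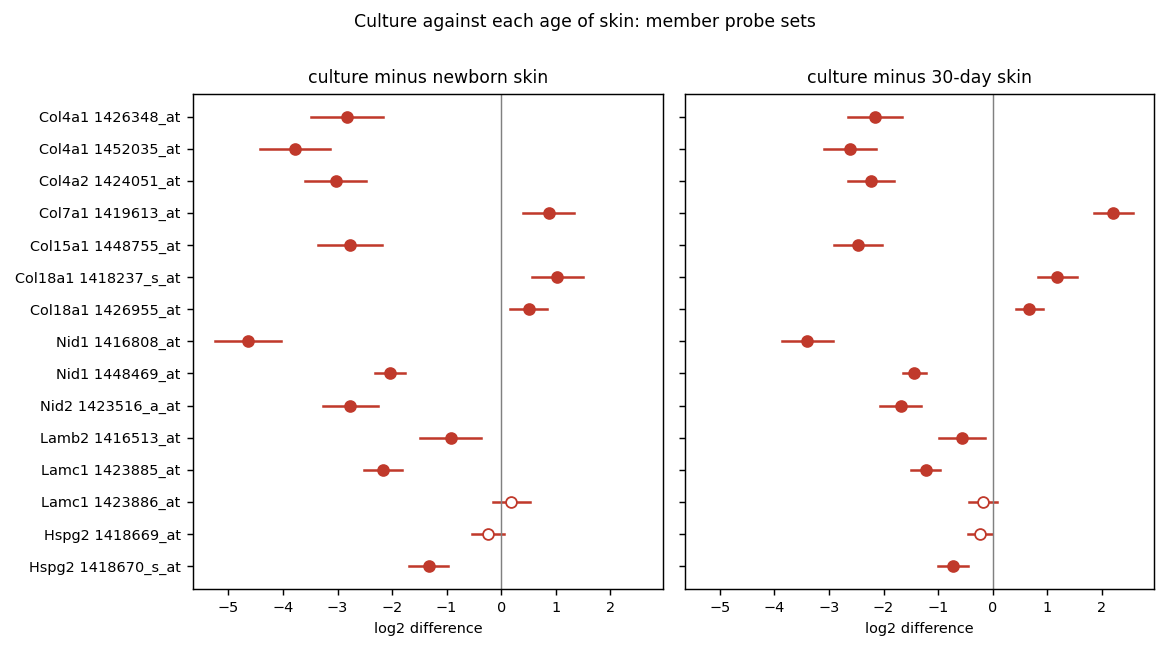
Log2 difference of culture from newborn skin and from 30-day skin (x axes) for each of the 15 probe sets (y axis), with 95% intervals from limma and filled points where the adjusted p is under 0.05. Nid1 lies furthest to the left at -4.64 and -3.40, and only Col7a1 and Col18a1 lie to the right with filled points.

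The fall of the collagen IV, Col15a1 and nidogen genes ran alongside lower markers of other cell types in the cultures. Against newborn skin, 13 of 13 fibroblast markers were lower, among them the collagen gene Col3a1 (-7.15) and the decorin gene Dcn (-5.90). Over all 12393 genes 2245 were lower and 2141 higher. Of 16 endothelial markers 15 were lower, with the endothelial cadherin gene Cdh5 at -2.22. Of 12 smooth muscle and pericyte markers 8 were lower, with the pericyte gene Rgs5 at -4.55, and 0 genes of these 3 lists were higher, also at an unadjusted p under 0.05 (limma). Acta2, the smooth muscle actin gene, was among the 4 not called, with means of 10.73 in culture and 10.74 in newborn skin. Markers of fat cells were lower for 8 of 8, of skeletal muscle for 10 of 14 and of macrophages for 8 of 8, and those of Schwann cells were lower for 3 of 6 and higher for 2. The part of these cells in the differences of the 10 genes was not tested.

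Other genes of the basement membrane moved in both directions as well. Laminins are trimers of an α, a β and a γ chain. Of 8 other laminin chain genes measured, 4 were lower in culture than newborn skin and 2 higher (median -0.38, against 0.01 for all genes). Over all 12393 genes 2245 were lower and 2141 higher than newborn skin, and 2650 lower and 3238 higher than 30-day skin. These totals stand beside the counts of the lists that follow as well. Lama4 and Lama2, the α chains of vessel and muscle laminins, differed by -3.41 ± 0.19 and -2.79 ± 0.18 (SE, adjusted p = 1.59e-08 and 4.22e-08, limma). Lama3 and Lamb3, chains of laminin-332 that keratinocytes make, were higher by 2.90 ± 0.16 and 2.19 ± 0.26 (SE, adjusted p = 1.05e-08 and 1.79e-05, limma). Against 30-day skin the counts were 3 lower and 2 higher, with Lama4 at -1.86, Lama2 at -1.53, Lama3 at 3.32 and Lamb3 at 2.89.

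Of 8 further collagen genes of basement membranes and their borders, 3 were lower and 1 higher than newborn skin, and 5 were lower and 1 higher than 30-day skin. The lower 3 were Col6a1, Col6a2 and Col6a3, which encode the microfibrils of collagen VI, at -4.54, -4.56 and -3.58 against newborn and -3.26, -3.34 and -2.32 against 30-day skin. Col17a1, the transmembrane collagen of hemidesmosomes, was higher by 2.43 and 1.82. Among 15 other components 8 were lower and 2 higher in each comparison. The netrin gene Ntn1 differed by -4.12 from newborn and -2.17 from 30-day skin, Sparc, whose product binds collagen, by -3.22 and -3.58, and Smoc2, which encodes a relative of it, by -3.16 and -2.90. Tinagl1, which encodes a tubulointerstitial nephritis antigen-like protein, was higher by 1.11 and 1.85, and on the scale of the epithelial junction genes the first of these was 0.42 (adjusted p = 0.0805, limma).

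Receptors and anchors split. Of 18 measured receptor and anchor genes 7 were higher and 6 lower than newborn skin, where 2141 and 2245 of all 12393 genes were. Against 30-day skin 8 were higher and 4 lower, where 3238 and 2650 of all genes were. The integrin genes Itgb4 and Itgb1 were higher by 2.17 and 1.34 against newborn skin, and by 1.96 and 1.31 against 30-day skin. Dst, which encodes the hemidesmosome linker dystonin, rose by 1.47 and 1.49. Sgce, a sarcoglycan gene, and Bcam, a laminin receptor gene, were lower, at -1.96 and -1.56 against newborn skin. On the scale of the epithelial junction genes which shifts all genes downward (16541 and 9045 of all 22626 probe sets lower), the counts were 5 higher and 8 lower against newborn skin and 6 higher and 7 lower against 30-day skin.

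Enzymes and chaperones that fold and crosslink collagen were lower than newborn skin for 15 of 21 genes and higher for 1, and lower than 30-day skin for 11 and higher for 3. The lysyl oxidase genes Loxl1 and Lox differed by -4.39 and -3.72 from newborn and by -2.54 and -1.99 from 30-day skin. The transglutaminase gene Tgm2 differed by -2.45 and -2.94. Plod2, a lysyl hydroxylase gene, was the 1 higher gene against newborn skin, at 0.97 (0.28 with an adjusted p of 0.111 by limma on the junction gene scale), and differed by 1.76 from 30-day skin, whereas Plod1 of the same family differed by -2.08 from newborn skin.

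**Figure D4:**
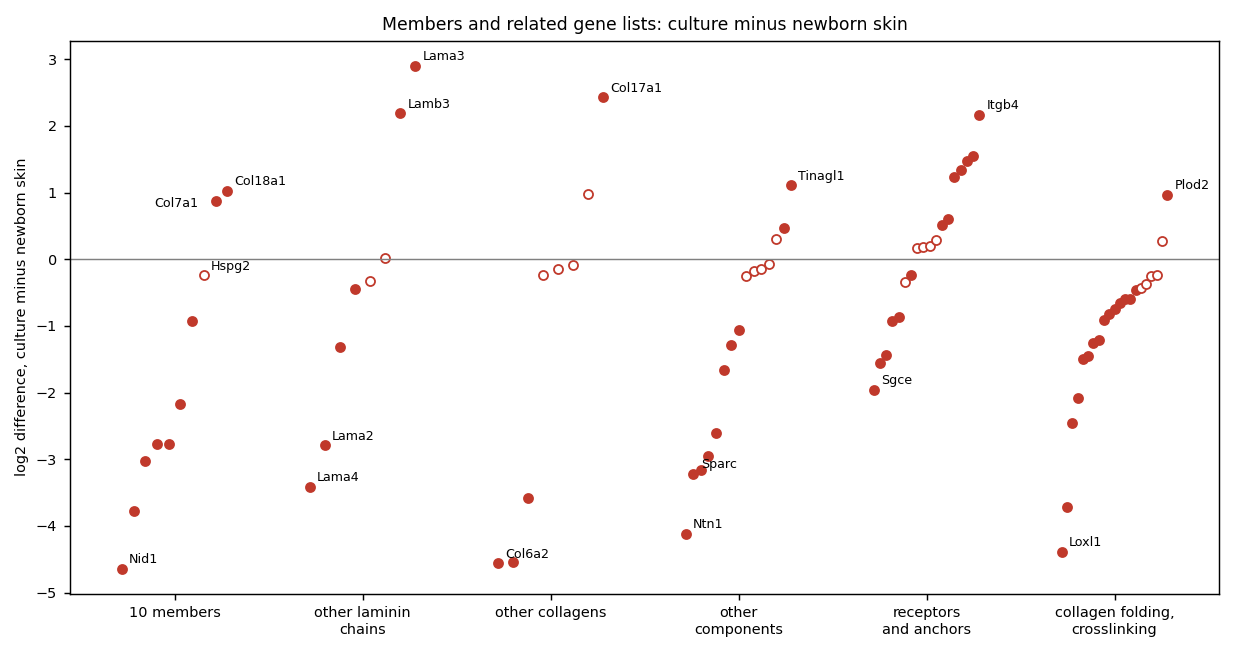
Log2 difference of culture from newborn skin (y axis) for the 10 genes, each by its probe set of highest mean signal, and for the genes of 5 related lists (x axis), with filled points where the adjusted p is under 0.05 (limma). Each list spreads over both directions, from Nid1 at -4.64 to Lama3 at 2.90.

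Skin at 30 days was set against newborn skin to follow age, with strain differing alongside. Of the 15 probe sets 7 were lower in 30-day skin and 0 higher, where 7.36% of all probe sets were lower and 4.75% higher. The median difference was -0.60, against 0 for all probe sets. At an unadjusted p under 0.05 (limma) 9 were lower and 1 higher, with no count of all probe sets made at that threshold. The arrays of the ages did not overlap for 10 lower and 1 higher probe set, against 17.6% and 14.6% of all probe sets.

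Col7a1 fell by 1.34 ± 0.22 in 30-day skin (SE, adjusted p = 0.00128, limma), or 2.54-fold, at 6.69 ± 0.27 (SD, n = 5) in 30-day skin and 8.04 ± 0.17 (SD, n = 2) in newborn skin. Nid1 fell by 1.24 and 0.60 on its probe sets (adjusted p = 0.0117 and 0.00701, limma), Nid2 fell by 1.07 (adjusted p = 0.00873, limma), and Lamc1 fell by 0.94 on probe set 1423885_at (adjusted p = 0.00239, limma). Col4a1 passed on 1452035_at (-1.16, adjusted p = 0.0219) and missed on 1426348_at (-0.67, adjusted p = 0.191), both by limma. Col4a2 differed by -0.80 with a 95% interval of -1.36 to -0.24 (adjusted p = 0.0633, limma). In a fit of the skin arrays alone Col4a2 and Col4a1 1426348_at passed (adjusted p = 0.0085 and 0.00436, limma), and Col4a2 also passed with array weights (0.0129) or 1 probe set per gene (0.0467). Of all probe sets tested, these fits called 7.73%, 12.9% and 9.84% lower. The Hspg2 probe set 1418670_s_at fell by 0.60 (adjusted p = 0.0304, limma).

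Col15a1, Col18a1 and Lamb2 did not pass between the ages of skin in the fit without strain. Col15a1 differed by -0.30 with an interval of -0.89 to 0.28, the Col18a1 probe sets by -0.15 and -0.18, and Lamb2 by -0.35 with an interval of -0.91 to 0.21. Hspg2 on 1418669_at differed by 0.00 with an interval of -0.29 to 0.29.

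With 2 arrays in newborn skin, several of these calls needed both. The calls other than those of Col7a1 and of Lamc1 1423885_at were lost when either newborn array was left out. Without newborn replicate 1 and 2 in turn, the difference was -1.22 and -1.27 for Nid1 1416808_at and -1.02 and -1.13 for Nid2. For Hspg2 1418670_s_at it was -0.75 and -0.45. How many of all probe sets lost their calls in those fits was not counted. The count of lower calls was again 7 without replicate 1 of 30-day skin. The Hspg2 call was lost without replicate 3, 4 or 5 of 30-day skin too (adjusted p = 0.0564, 0.0603 and 0.0617, limma). The count of lower calls was 4 with the replicate number as a block and 8 with strain as a covariate (4.63% of all probe sets lower), a fit that takes the strain difference from the cultures alone. In that fit Col7a1 (-0.83, adjusted p = 0.0719, limma) and Nid2 (-1.06, adjusted p = 0.0799, limma) missed the threshold, and Col4a2 (-1.62), the other Col4a1 probe set (-1.81) and Col18a1 1418237_s_at (-0.83, adjusted p = 0.0219, limma) passed it. On the scale of the epithelial junction genes, where the median of all probe sets shifted to -0.40, 13 were lower, as were 42.2% of all probe sets.

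**Figure D5:**
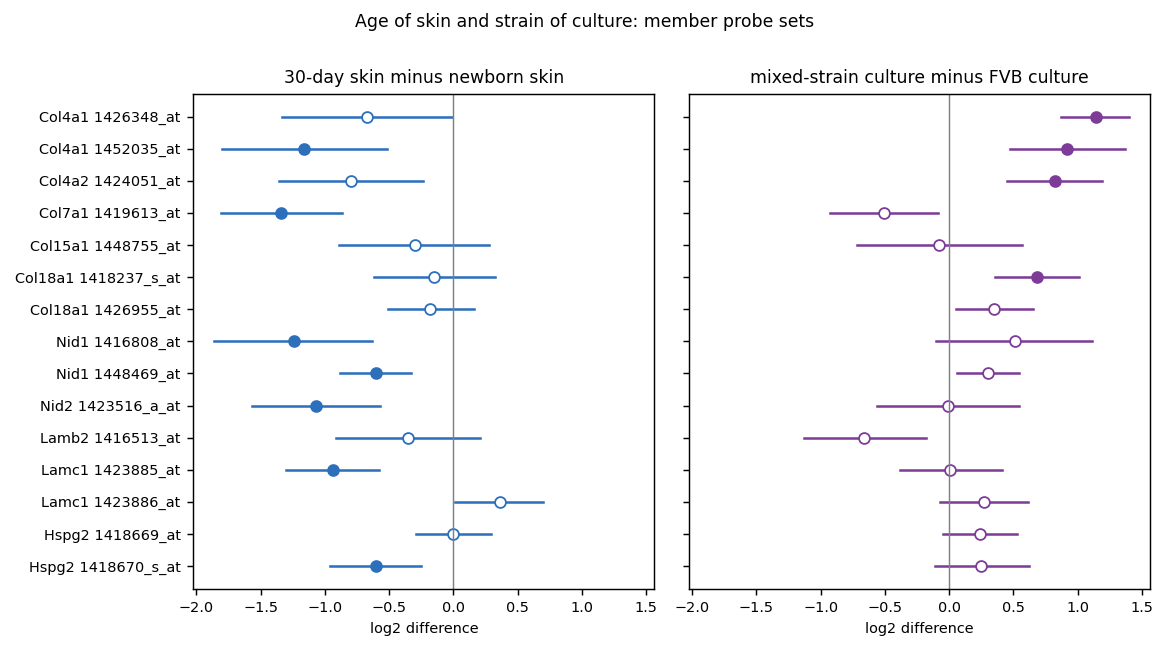
Log2 difference of 30-day from newborn skin and of mixed-strain from FVB cultures (x axes) for each of the 15 probe sets (y axis), with 95% intervals from limma and filled points where the adjusted p is under 0.05. All 7 filled points for age lie to the left of 0, and all 4 filled points for strain lie to the right.

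Related genes were also lower in 30-day skin where they passed. Of the other laminin chains 3 of 8 were lower and 0 higher, with Lama4 at -1.55, Lama2 at -1.26 and Lamb1, the β1 chain gene, at -0.76. Col6a1, Col6a2 and Col6a3 were the 3 lower genes of the 8 further collagens, at -1.29, -1.22 and -1.26. Of 15 other components 5 were lower, with Ntn1 at -1.95 and the fibulin gene Fbln5 at -1.44. Of 18 receptors 4 were lower, with Sgce at -1.02 and the plectin gene Plec at -0.64. Of 21 folding and crosslinking genes 9 were lower, with Loxl1 at -1.85, Lox at -1.73, the prolyl hydroxylase gene P3h1 at -0.93 and its partner gene Crtap at -0.80. When either newborn array was left out, Lamb1, Col6a1, Col6a2, Fbln5, Plec, Lox and Crtap missed the threshold, as did P3h1 without replicate 2, and Lama4, Lama2, Col6a3, Ntn1, Sgce and Loxl1 passed it. At an unadjusted p under 0.05 (limma) 1 further collagen, 2 receptor genes and 1 folding gene were higher, with no count of all genes made at that threshold. By limma's adjusted p 0 genes in each of these 5 lists were higher, whereas over all 12393 genes 1104 were lower and 677 higher. Fibroblast markers moved with them, lower for 8 of 13 (the transcription factor gene Twist2 at -2.42), as did endothelial markers, lower for 9 of 16 (Cldn5 at -1.17 and Cdh5 at -1.07). Fat cell markers were lower for 3 of 8, with the adiponectin gene Adipoq at -1.29 (not called without newborn replicate 2, adjusted p = 0.0783, limma), smooth muscle and pericyte markers for 4 of 12 and Schwann cell markers for 1 of 6. Skeletal muscle markers were higher for 5 of 14 and lower for 2, macrophage markers higher for 3 of 8, keratinocyte markers lower for 4 of 11 and higher for 1, and the epithelial junction genes higher for 6 of 21. Their part in the result was not tested.

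Within culture, the mixed-strain samples had more collagen IV signal than the FVB samples. Of the 15 probe sets 4 were higher and 0 lower in mixed-strain cultures, where 3.91% of all probe sets were higher and 5.30% lower. At an unadjusted p under 0.05 (limma) 6 were higher and 2 lower, with no count of all probe sets made at that threshold. The arrays of the strains did not overlap for 8 higher and 2 lower probe sets, against 22.0% and 24.0% of all probe sets. The Col4a1 probe set 1426348_at read 8.29 and 8.52 in the mixed-strain and 7.10, 7.35 and 7.36 in the FVB cultures. The strains did not overlap, and the difference was 1.14 ± 0.12 (SE, adjusted p = 0.000122, limma), or 2.20-fold. Probe set 1452035_at differed by 0.92 ± 0.21, Col4a2 by 0.82 ± 0.17 and Col18a1 on 1418237_s_at by 0.68 ± 0.15 (SE, adjusted p = 0.0152, 0.0103 and 0.0131, limma). Without culture 1 or without culture 2 the count of higher probe sets was 1, that of Col4a1 1426348_at, and without culture 3 the other Col4a1 probe set missed (0.81, adjusted p = 0.0546, limma). With the replicate number as a block it was 2.

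Lamb2 and Col7a1 lay the other way without passing, at -0.66 and -0.51 (adjusted p = 0.0827 and 0.124, limma). Both passed in a fit of the cultures alone (adjusted p = 0.0134 and 0.0499, limma), where 8.10% of all probe sets were lower. With array weights both passed too (0.0112 and 0.0453), where 11.8% of all probe sets were lower. Lamb2 was at -1.03 with the replicate block (adjusted p = 0.0239, limma). In culture the replicate numbers split by strain, so that block takes the replicate differences from 30-day skin and cannot test strain. Col15a1, Nid2 and Lamc1 1423885_at differed by -0.08, -0.01 and 0.01. Fibroblast markers were also higher in mixed-strain cultures for 5 of 13 and lower for 0, where 370 of all 12393 genes were higher and 775 lower. The mean of the fibroblast markers was 6.86 and 6.91 in the mixed-strain and 6.19, 6.23 and 6.29 in the FVB cultures. Vim, the vimentin gene, differed by 1.37, Col1a2 by 1.36 and Col3a1 by 0.92. The smooth muscle gene Tagln was higher by 1.63, and keratinocyte markers averaged 9.22 and 9.23 in the mixed-strain and 9.75 to 9.76 in the FVB cultures. Of the 11 keratinocyte markers 3 were lower in mixed-strain cultures, the differentiation keratin genes Krt1 (-2.29) and Krt10 (-1.17) and the transcription factor gene Trp63 (-0.70), and 0 were higher. Trp63 was not called without culture replicate 2 or 3 (adjusted p = 0.184 and 0.0514, limma). Whether these markers had a part in the strain difference of collagen IV was not tested. The actin gap was smaller in the mixed-strain cultures, at 0.21 and 0.35, and ran over 0.56 to 0.74 in those of FVB. Culture differed from skin at matched strain as well: FVB cultures against FVB newborn skin gave 10 lower and 2 higher probe sets (14.8% and 19.6% of all probe sets), and mixed-strain cultures against mixed-strain 30-day skin gave 10 lower and 3 higher (16.2% and 21.4%).

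The genes whose signal over the 12 arrays most resembled that of each member were found by Pearson correlation. Arrays of one group share their kind of sample, so the correlations describe these 12 arrays only. Among the genes searched, Col4a1 was closest to Fstl1, Col6a1 and Col5a1 (0.994 to 0.995), and Col4a2 to Mgll and to both probe sets of Fstl1 (0.992). Nid1 was closest to Postn, Wfdc21 and Mfap4 (0.996 to 0.998), Nid2 to Aspn, Col11a1 and Copz2 (0.991 to 0.994), and Lamc1 to Col14a1, Eln and Gstz1 (0.987 to 0.991). Col15a1 was closest to Pcx, Dpep1 and Mmd (0.992 to 0.996), Col7a1 to Vopp1, Cpe and Fam3c (0.981 to 0.986), and Col18a1 to Tcf25, Ehd1 and Hyal2 (0.981 to 0.988). The values were lower for Lamb2, closest to Ctcf, Shmt1 and Lrpap1 (0.949 to 0.962), and for Hspg2 1418669_at, closest to Nrd1, Ece2 and Zg16 (0.927 to 0.940).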

How the data were processed

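The deposited values are log2 signals per probe set, made by the authors with RMA per the submitters' processing notes, whose version and settings were not given in the sources used. They ran from 2.89 to 13.59. Precision is limited by the number of arrays, since RMA gives neither counts nor detection calls. Of 22690 probe sets, 64 controls were left out. By the platform annotation, 20380 probe sets had 1 gene symbol, 691 had several and 1555 had none. All 10 member genes matched RefSeq by gene identifier, and 0 probe sets with several symbols held a member.

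Group means were fitted over all 12 arrays at once (4 means for the strain of the cultures) with the lmFit and eBayes functions of limma 3.58.1, run in R 4.3.3, and two-sided p-values were adjusted by Benjamini-Hochberg over 22626 probe sets at 0.05. Gene lists used the probe set of highest mean for each gene. The members and lists were chosen with earlier results of these data known. The text names the member probe sets and some of the genes that a rule gave for each list and comparison. That rule took up to 4 called genes with the largest difference and the gene with the largest p. The text also names the 3 most correlated probe sets per member, with the members themselves left out.

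Alternatives covered normalisation, centring, a filter on the dimmest 40% of probe sets, 1 probe set per gene, the variance model, array weights, a threshold of 0.01, strain, the samples in the fit, the replicate number as a block and leaving out each array. Arrays of a group correlated at 0.9682 to 0.9957, and none were identical. Deviations of same-numbered arrays from their group means correlated at -0.28 to 0.20, so the numbers were not taken as pairs. The fits were tested on simulated data. Figures were drawn with Python 3.11.15 and matplotlib 3.10.9.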

Additional observations from a re-analysis of the deposited data

Results flagged for a closer look

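Of 30 sets of 5 arrays tested for a lone value, 3 had an array far from its neighbours, all within 30-day skin, and chance alone gives about 1 in 20 such sets. Replicate 1 was high for Nid2, at 6.66 where the next array read 5.72, and low for Col18a1 on 1418237_s_at, at 8.23 where the next read 8.59. Replicate 3 was high for Col4a1 on 1426348_at, at 10.06 where the next read 9.87. Replicate 1 is the array with the widest actin gap, 1.74.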

How the results depend on the processing

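The counts of lower probe sets in culture stayed within 1.5 times under every alternative, and single arrays moved them over 9 to 10 against either age of skin. Centring on the epithelial junction genes left 0 higher probe sets against newborn skin (3.61% of all probe sets). It gave 13 lower ones in 30-day skin (42.2% of all) and 2 higher ones in mixed-strain cultures (2.20% of all). Leaving out single arrays gave 1 to 3 higher probe sets in culture than newborn skin, 2 to 7 lower ones in 30-day than newborn skin and 1 to 4 higher ones in mixed-strain than FVB cultures. Array weights gave 1 higher probe set in 30-day skin, where 9.91% of all probe sets were higher. They gave 7 higher and 2 lower in mixed-strain cultures, where 10.1% and 11.8% of all probe sets were. A fit of the cultures alone also gave 2 lower there, where 8.10% of all probe sets were lower. At a threshold of 0.01 there were 4 lower probe sets in 30-day skin and 1 higher in mixed-strain cultures. No count of all probe sets was made at 0.01 or without single arrays, so those member counts have no share beside them.

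The numbers were not taken as pairs, since 1 of 9 same-numbered pairs correlated above 0.1. The deviations of the 2 newborn arrays mirror each other and those of cultures carry the strain split, so these correlations cannot exclude pairing. With the replicate number as a block there were 4 lower probe sets in 30-day skin (4.56% of all probe sets). There were 2 higher and 1 lower in mixed-strain cultures (2.59% and 3.17% of all). Under the block the sign turned for Col18a1 1418237_s_at (0.01) and Hspg2 1418669_at (0.05) in 30-day against newborn skin. In mixed-strain against FVB cultures it turned for Nid1 1416808_at (-0.21), Lamc1 1423885_at (-0.22) and Hspg2 1418670_s_at (-0.12). Cultures 1 and 2 are the mixed-strain ones, so for that comparison the block takes the replicate differences from 30-day skin and cannot test strain.

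With junction gene centring, Col18a1 1426955_at was -0.19 and Lamc1 1423886_at -0.50 in culture against newborn skin, the last now past the threshold (adjusted p = 0.0108, limma), Lamc1 1423886_at was -0.05 in 30-day against newborn skin and Lamc1 1423885_at was -0.03 between strains (-0.02 with median centring). Hspg2 1418669_at in 30-day against newborn skin was 0.09 after a further quantile normalisation, 0.02 with array weights and -0.07 to 0.07 without single arrays, and Lamb2 was 0.31 with strain as a covariate. Between strains Nid2 was 0.00 after quantile normalisation, and without single arrays Nid2 ran over -0.10 to 0.06, Col15a1 over -0.18 to 0.03 and Lamc1 1423885_at over -0.22 to 0.25. The causes were not tested. With 2 newborn arrays, small differences between the ages of skin may be missed.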
